A study of Homo sapiens with 4 samples.

Results

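The transcripts described here encode 10 heat shock chaperones of the cytosol and the mitochondrial matrix: the HSP90 proteins HSP90AA1 and HSP90AB1, the HSP70 proteins HSPA8, HSPA1A and HSPA1B, the HSP110 protein HSPH1, the J-domain protein DNAJB1, the small heat shock protein HSPB1, and the mitochondrial pair HSPD1 and HSPE1. They were taken by gene name from the count tables, 10 of 29655 distinct names, and all 10 were among the 11919 protein-coding genes with enough reads to be tested. UMSCC74B, the line sequenced, is an established human line of head and neck squamous cell carcinoma (HNSCC). There were 2 control libraries, from cells that received a control shRNA, and 2 from cells that received shRNA against PRMT5, an arginine methyltransferase, all collected 72 h after delivery. The labels give the genotype of the former as WT and of the latter as PRMT5 KD. The labels speak of plasmid transfection and the methods of the paper of lentiviral particles, and nothing says that the 2 libraries of a group came from separate cultures, so p-values measure the spread between these libraries, which may be technical. Libraries were made from total RNA with a directional kit.

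HSP70 proteins bind stretches of unfolded protein and release them in a cycle driven by ATP. J-domain proteins such as DNAJB1 bring clients and trigger ATP hydrolysis, and HSP110 proteins such as HSPH1 exchange the nucleotide. HSP90 dimers act later in folding, on kinases, steroid receptors and other clients passed on from HSP70 by co-chaperones. In the mitochondrial matrix HSPD1 (HSP60) forms a barrel that HSPE1 (HSP10) caps. HSPA8 and HSP90AB1 are made in unstressed cells, whereas HSPA1A, HSPA1B and DNAJB1 are classic targets of the heat shock factor HSF1, which binds heat shock elements (HSEs), arrays of the unit GAA in alternating orientation. Tumor cells commonly carry high levels of several of these proteins.

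The upstream sequences of 6 of these genes are shown because they hold different arrangements of such units and belong to transcripts that were called higher (HSP90AA1, HSP90AB1, HSPA8 and HSPD1), called lower (HSPB1) or not called (HSPA1A). Each run is the 250 bases before the start of the MANE Select transcript, the reference transcript agreed between the annotations, on the coding strand of GRCh38 as RefSeq gives it, 5′ to 3′. Capitals mark every match to a two-unit or three-unit HSE.

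HSP90AA1 (chr14:102087045-102087294, minus strand): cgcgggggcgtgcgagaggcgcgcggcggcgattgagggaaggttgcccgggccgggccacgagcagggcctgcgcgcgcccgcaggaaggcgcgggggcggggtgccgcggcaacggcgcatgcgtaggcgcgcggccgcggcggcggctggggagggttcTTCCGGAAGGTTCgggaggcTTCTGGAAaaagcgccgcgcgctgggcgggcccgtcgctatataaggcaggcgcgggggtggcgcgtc
HSP90AB1 (chr6:44246851-44247100, plus strand): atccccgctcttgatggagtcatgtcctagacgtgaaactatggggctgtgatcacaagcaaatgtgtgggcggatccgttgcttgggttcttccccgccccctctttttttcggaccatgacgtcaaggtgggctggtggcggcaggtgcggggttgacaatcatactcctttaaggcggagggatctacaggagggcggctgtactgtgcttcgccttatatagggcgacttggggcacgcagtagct
HSPA8 (chr11:123062137-123062386, minus strand): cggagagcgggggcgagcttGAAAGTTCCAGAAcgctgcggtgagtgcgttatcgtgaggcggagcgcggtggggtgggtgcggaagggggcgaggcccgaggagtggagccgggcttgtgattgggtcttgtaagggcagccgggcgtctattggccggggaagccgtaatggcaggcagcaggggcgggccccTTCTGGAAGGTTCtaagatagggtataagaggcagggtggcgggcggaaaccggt
HSPA1A (chr6:31815293-31815542, plus strand): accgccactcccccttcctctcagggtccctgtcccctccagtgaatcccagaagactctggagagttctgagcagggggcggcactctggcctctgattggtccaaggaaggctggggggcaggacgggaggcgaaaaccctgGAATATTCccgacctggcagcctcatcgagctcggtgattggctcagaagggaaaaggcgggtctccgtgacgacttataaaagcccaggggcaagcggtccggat
HSPB1 (chr7:76302423-76302672, plus strand): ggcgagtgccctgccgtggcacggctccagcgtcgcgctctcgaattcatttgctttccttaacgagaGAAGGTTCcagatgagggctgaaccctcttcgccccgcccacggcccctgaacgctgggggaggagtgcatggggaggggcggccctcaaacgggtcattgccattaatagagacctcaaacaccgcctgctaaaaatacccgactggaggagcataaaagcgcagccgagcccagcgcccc
HSPD1 (chr2:197499841-197500090, minus strand): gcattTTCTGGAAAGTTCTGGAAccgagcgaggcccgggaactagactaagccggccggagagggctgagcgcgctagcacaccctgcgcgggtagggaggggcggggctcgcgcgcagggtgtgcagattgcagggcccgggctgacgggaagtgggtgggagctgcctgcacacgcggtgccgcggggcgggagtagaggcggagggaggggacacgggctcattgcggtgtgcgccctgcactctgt

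The motifs searched, on both strands, were the two-unit forms GAANNTTC and TTCNNGAA and the three-unit form GAANNTTCNNGAA with its reverse complement TTCNNGAANNTTC, which holds both two-unit forms within it. All 10 genes matched a RefSeq promoter window of 300 bases, which runs from 250 bases before to 50 bases after a start. A two-unit form was present in 7 of the 10 windows nearest the MANE start, and a three-unit form in 3 of them, those of HSPA8, HSP90AA1 and HSPD1. Of all 35116 windows in the RefSeq table, 13.5% held a two-unit form and 0.490% the three-unit form. The HSPA8 window held 2 three-unit matches, which begin 230 and 55 bases before the start. The HSP90AA1 window held 1, beginning 88 bases before the start, with a further TTCNNGAA match at 68 bases.

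The HSPD1 window held 2 overlapping three-unit matches, beginning 245 and 240 bases before the start. HSPD1 and HSPE1 are transcribed away from each other, with starts 539 bases apart, and these matches lie between them, at chr2:197500068-197500085. The HSPE1 window itself does not reach that far and held no match. HSPA1A and HSPA1B each held a single GAATATTC, beginning 106 and 105 bases before the start, and were the members with a TATAAA box, a motif found in 11.5% of all windows. Aligned with a shift of 1 base, the windows of this pair were the same at 277 of 299 positions. DNAJB1 had 2 two-unit matches, at 77 and 47 bases, and HSPB1 had 1, at 182 bases.

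No match was found in the HSP90AB1 window at the MANE start or in that of HSPH1, whose nearest listed window lies 484 bases from its MANE start. Another RefSeq window of HSP90AB1, for a start 842 bases downstream, held 2 three-unit matches, TTCTGGAAGATTC at chr6:44247778-44247790 and TTCTGGAAGCTTC at chr6:44247831-44247843, both within intron 1 of the MANE transcript. A match of letters describes the sequence and is not a measure of binding.

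**Figure D1:**
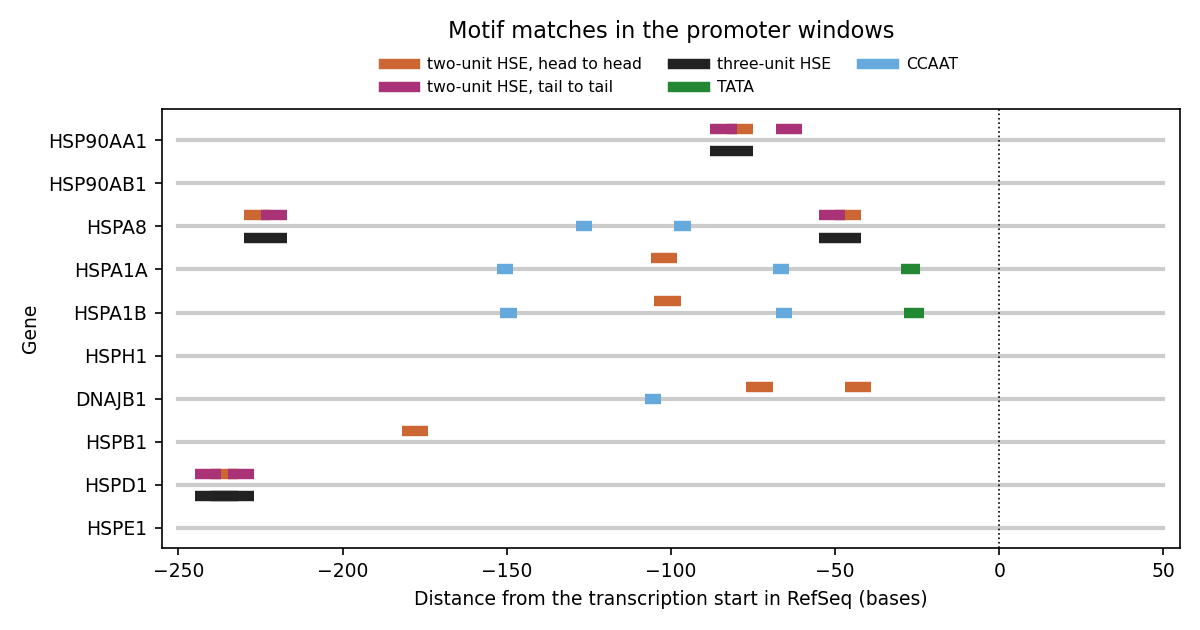
Matches to HSE, TATAAA and CCAAT letters in the RefSeq window nearest the MANE start of each gene, drawn to scale from 250 bases before to 50 bases after the start (dotted line, horizontal axis in bases). Three-unit HSEs (black) appear in HSP90AA1, HSPA8 and HSPD1, and no HSE in HSP90AB1, HSPH1 or HSPE1.

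Before the chaperones are compared, the libraries were checked against their labels. PRMT5 itself stood at 94.2 and 84.1 counts per 1e6 counts after scaling (CPM) in control, while the PRMT5 KD libraries, as labelled, had 132 and 150 CPM. The transcript was thus higher in both libraries meant to lack it, with a log2 fold change of 0.66 (SE 0.12, FDR = 0.00539) and 0.58 (FDR = 0.0662) without control 2. Every direction given here is therefore between the control libraries and the libraries labelled PRMT5 KD. The paper reports that an immunoblot, which measures protein, bore out the silencing by the PRMT5 shRNA. The depth was 52185289 to 65964558 estimated counts per library, with 71.6% to 81.4% of them assigned to protein-coding genes. The share of ribosomal RNA was 15.3% and 14.2% in control but 26.2% and 18.02% under the PRMT5 KD label. When the libraries were scaled by total counts alone, the median over all tested genes shifted from -0.01 to 0.17 (log2 fold change) and the share of called genes that were higher from 46.6% to 61.3%. The same 6 chaperones were called under both scalings.

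Of 8 squamous epithelial markers, 2 had enough reads to be tested, TP63 and DSG3, and both were lower under the PRMT5 KD label. The keratins KRT5 and KRT6A had at most 4 counts in any library, E-cadherin (CDH1) at most 9 and EPCAM 29 to 48. KRT17 had 5 and 6 counts in control, against 53 and 71 in the libraries labelled PRMT5 KD, and KRT14 had 0 in both controls, against 11 and 21.8, so these markers of the list, not tested, went the other way. Several defining markers of the labelled cell type were thus at or near 0. Of 6 fibroblast markers 5 were tested and all 5 were lower, and the summed level of the list was 539 and 628 CPM in control against 74.6 and 72.8 CPM. The endothelial list summed to 10.9 and 14.7 CPM in control and 2.10 and 1.15 CPM under the PRMT5 KD label. PECAM1, its tested member, fell from 7.39 and 9.76 CPM to 0.294 and 0.146 CPM, and VWF, not tested, was lower too. CDH5 was at 0 in both labelled libraries but reached at most 8 counts in a control. For KDR, not tested, the groups overlapped: PRMT5 KD 1 had 1.09 CPM and PRMT5 KD 2 had 0.690, beside controls of 0.858 and 0.719. In the leukocyte list CD3E was at 0 in every library, and its sum of 94.6 to 170 CPM was almost all CD68, which was higher. Most of the tested markers were thus lower under the PRMT5 KD label, whereas most of the called chaperones were higher. The part of these markers in the chaperone results was not tested. In bulk RNA, fewer cells of a type and less RNA per cell cannot be told apart.

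Across the 10 chaperones, 5 were called higher in the libraries labelled PRMT5 KD, HSP90AA1, HSP90AB1, HSPA8, HSPD1 and HSPE1, and 1 was called lower, HSPB1. Calling required an edgeR FDR below 0.05 together with a log2 fold change of 0.5 or more in either direction. By that rule 45.5% of all genes tested were called, 21.2% higher and 24.3% lower. The CPM of the 2 groups did not overlap for 8 of the 10, and the same held for 80.5% of all genes, so the lack of overlap alone says little here. The median log2 fold change of the 10 was 0.46, beside -0.01 over all genes tested. With the fold threshold raised to 1 on the log2 scale, HSP90AB1, HSPD1 and HSPB1 were called, beside 21.6% of all genes. These members alone were called without control 1 and without control 2, fits in which fewer of all genes were called as well. Together the 10 transcripts made up 0.270% and 0.300% of the counts on tested genes in control, against 0.506% and 0.642% in the libraries labelled PRMT5 KD.

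**Figure D2:**
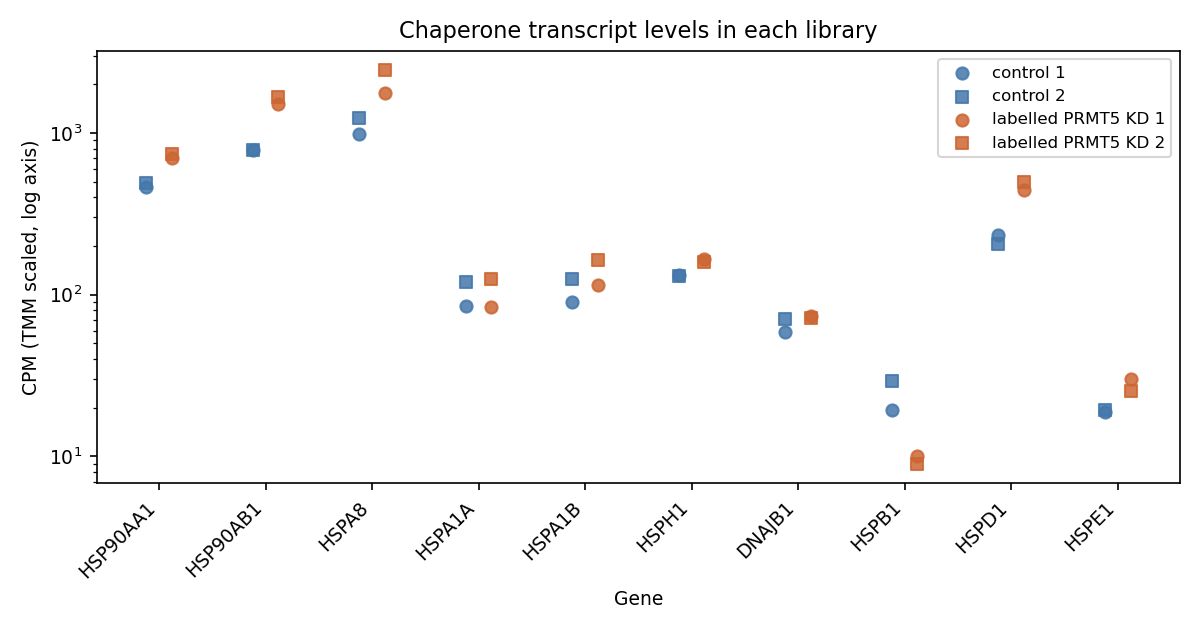
Level of each chaperone transcript in each of the 4 libraries, as TMM-scaled CPM on a log axis. The libraries labelled PRMT5 KD lie above both controls for HSP90AA1, HSP90AB1, HSPA8, HSPD1 and HSPE1, and below them for HSPB1, and the groups overlap for HSPA1A and HSPA1B.

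HSP90AB1, the constitutive cytosolic HSP90 (chromosome 6, 44246166 to 44253888 in GENCODE on GRCh38, as for all gene positions here, plus strand, 12 exons in the MANE transcript), had 779 and 789 CPM in control and 1511 and 1676 CPM under the PRMT5 KD label. The control libraries differed by little and both labelled libraries lay far above them. The log2 fold change was 1.02 (SE 0.14, FDR = 0.00179), a 2.03-fold difference. HSP90AA1, the isoform that responds more strongly to stress in many cells (chromosome 14, 102080742 to 102139699, minus strand), had 461 and 489 CPM in control and 695 and 740 CPM under the PRMT5 KD label. The groups again did not overlap, and the log2 fold change was smaller, 0.60 (SE 0.13, FDR = 0.0101).

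The call for HSP90AB1 held under every alternative that was run, with log2 fold changes of 0.93 to 1.20. For HSP90AA1 it was lost without control 1 (0.55, FDR = 0.0924) and without control 2 (0.64, FDR = 0.0769), within a range of FDRs over all alternatives of 2.96e-05 to 0.0924. The ratio of HSP90AB1 to HSP90AA1 counts within a library, which no scaling between libraries touches, was 1.69 and 1.61 in control, against 2.17 and 2.27 in the libraries labelled PRMT5 KD. The beta isoform thus took a larger share of the pair in both labelled libraries. With 2 libraries per group an exact permutation test cannot give a two-sided p below 0.333, so ratios are given without a test.

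HSPA8, the constitutive cytosolic HSP70 (HSC70, chromosome 11, 123057489 to 123063230, minus strand, 9 exons), was the most abundant of the set. It had 979 and 1229 CPM in control and 1753 and 2433 CPM under the PRMT5 KD label. Libraries of the same group differed more than for HSP90AB1, but the groups did not overlap. The log2 fold change was 0.92 (SE 0.21, FDR = 0.0118). Without control 1 it was 0.77 (FDR = 0.105) and without control 2 it was 1.10 (FDR = 0.0567), so the call rests on having both controls. The FDRs over all alternatives ranged from 6.40e-05 to 0.105.

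HSPA1A and HSPA1B, the stress-inducible HSP70 genes, are intronless neighbors on the plus strand of chromosome 6, at 31815543 to 31817946 and 31827738 to 31830254. Their coding sequences are nearly identical, and their deposited counts carry decimals, so how reads were split between them is uncertain. HSPA1A had 84.8 and 119 CPM in control and 84.0 and 125 CPM under the PRMT5 KD label. HSPA1B had 89.8 and 126 CPM in control and 115 and 164 CPM under the label. In both genes the groups overlapped, and in each group the second library was the higher.

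The log2 fold change of HSPA1A was 0.03 (SE 0.25, FDR = 0.928), and it turned to -0.19 without control 1 and to -0.27 without PRMT5 KD 2. That of HSPA1B was 0.37 (SE 0.23, FDR = 0.220), and it was called without PRMT5 KD 1, at 0.64 (FDR = 0.0336, with FDRs over all alternatives of 0.0336 to 0.679). The sum of both genes, which avoids the split, was 175 and 245 CPM in control and 199 and 288 CPM under the PRMT5 KD label. With the pair summed, the log2 fold change was 0.22 (FDR = 0.475). A difference in the inducible HSP70 transcripts was thus not larger than the spread between libraries. HSPA8 counts were 5.61 and 5.02 times the summed counts of the inducible pair in control, and 8.79 and 8.45 times under the PRMT5 KD label. The ratio of HSPA1B to HSPA1A counts was 1.06 and 1.05 in control and 1.38 and 1.31 under the label.

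Neither of the 2 HSP70 partners in the set was called. HSPH1, the HSP110 exchange factor (chromosome 13, 31134973 to 31162388, minus strand, 18 exons), had 133 and 130 CPM in control and 167 and 160 CPM under the PRMT5 KD label. Its groups did not overlap and its FDR was 0.0429, but its log2 fold change of 0.32 (SE 0.11) lay under the threshold of 0.5. DNAJB1, the J-domain partner used in disaggregation (chromosome 19, 14514769 to 14560391, minus strand), had 58.6 and 71.1 CPM in control and 73.7 and 71.5 CPM under the label. Control 2 and PRMT5 KD 2 were nearly equal, and the log2 fold change was 0.16 (SE 0.13, FDR = 0.322). Over all alternatives it ranged from 0.03 to 0.44, the latter with the length and GC correction (FDR = 0.0250), still under the threshold of 0.5. HSPA8 counts were 16.7 and 17.3 times those of DNAJB1 in control and 23.8 and 34.02 times under the label.

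HSPB1 (HSP27), which holds unfolded proteins without ATP and binds actin filaments and intermediate filaments, was the member that fell. The gene lies on chromosome 7 at 76302673 to 76304295 on the plus strand and has 3 exons. Its level was 19.2 and 29.1 CPM in control and 10.0 and 9.04 CPM under the PRMT5 KD label. Control 2 was well above control 1, yet both exceeded the labelled libraries. The log2 fold change was -1.34 (SE 0.22, FDR = 0.0035), a level 2.54-fold lower, on 763 and 1457 counts in control and 477 and 432 counts under the label. Over all alternatives the log2 fold change stayed between -1.61 and -1.01 and the call held.

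HSPD1, the subunit of the mitochondrial chaperonin (chromosome 2, 197486584 to 197516737, minus strand, 12 exons), had the largest rise of the set. It had 233 and 206 CPM in control and 443 and 496 CPM under the PRMT5 KD label, without overlap. The log2 fold change was 1.10 (SE 0.14, FDR = 0.00124), 2.14-fold, and it held under all alternatives, at 1.01 to 1.28. HSPE1, its lid (197500140 to 197503449, plus strand, 4 exons), had 18.7 and 19.4 CPM in control and 30.2 and 25.4 CPM under the label. Its log2 fold change was 0.54 (SE 0.14, FDR = 0.0175), close to the threshold.

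The HSPE1 call was the least stable of the set. It was lost with the length and GC correction, which fits splines of both (0.22, FDR = 0.210), without control 1 (0.52, FDR = 0.113), without control 2 (0.57, FDR = 0.102) and without PRMT5 KD 1 (0.45, FDR = 0.0239), within a range of FDRs of 0.00283 to 0.210. The HSPE1 transcript is short, 557 nt, and near-identical processed copies of it are known in the genome, so its counts are uncertain. Processed copies of HSPD1, HSPA8 and HSP90AB1 are known too. Counts of these genes showed no decimals, unlike those of HSPA1A, HSPA1B and HSPE1. The methods of the paper keep uniquely mapped reads, whereas the decimals in other deposited counts leave uncertain how shared reads entered these tables. A readthrough gene, HSPE1-MOB4, had 0 and 4.88 counts in control, against 14.0 and 55.9 counts in PRMT5 KD 1 and PRMT5 KD 2. The HSPE1 count was whole in control 1 (743), where HSPE1-MOB4 had 0, and carried decimals in the other libraries. How reads were shared between these genes was not tested. HSPD1 counts were 12.4 and 10.6 times those of HSPE1 in control and 14.7 and 19.5 times under the label. Both labelled libraries thus held more HSPD1 per HSPE1 than either control, a difference that was not tested.

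**Figure D3:**
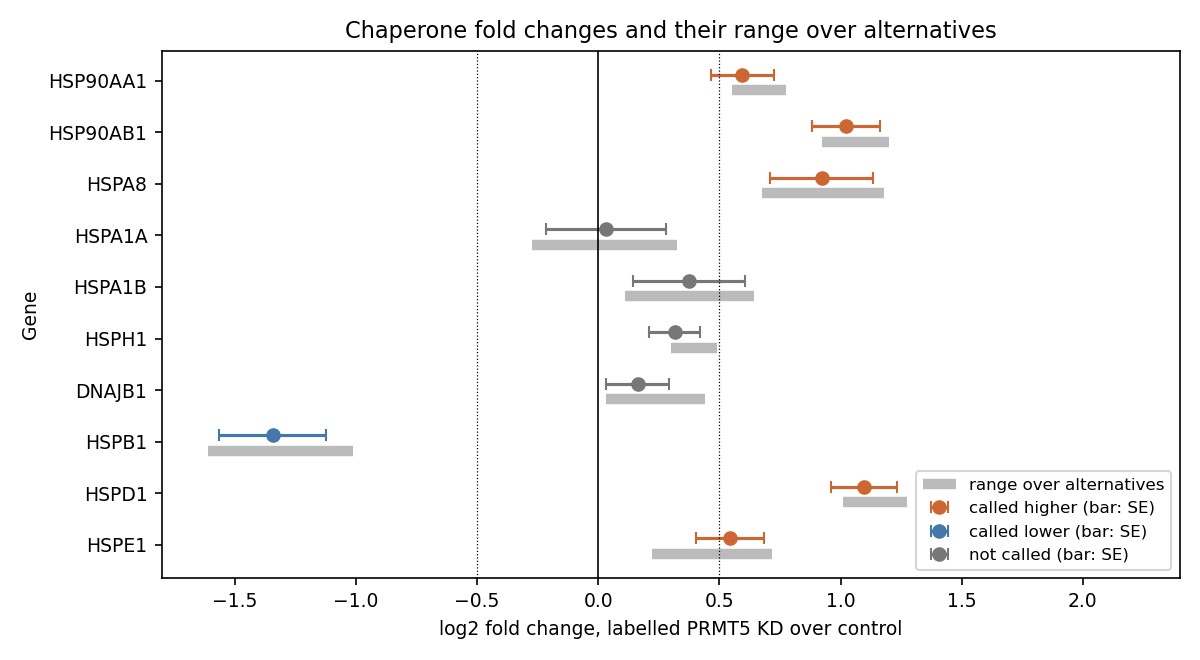
Log2 fold change of each chaperone, libraries labelled PRMT5 KD over control (points, with the standard error as bars) and the range of that value over all alternatives (grey). Dotted lines mark the threshold of 0.5 in each direction; HSP90AB1, HSPA8, HSP90AA1 and HSPD1 stay above 0.5 over the whole range, HSPB1 stays below -0.5, and HSPA1A crosses 0.

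**Figure D4:**
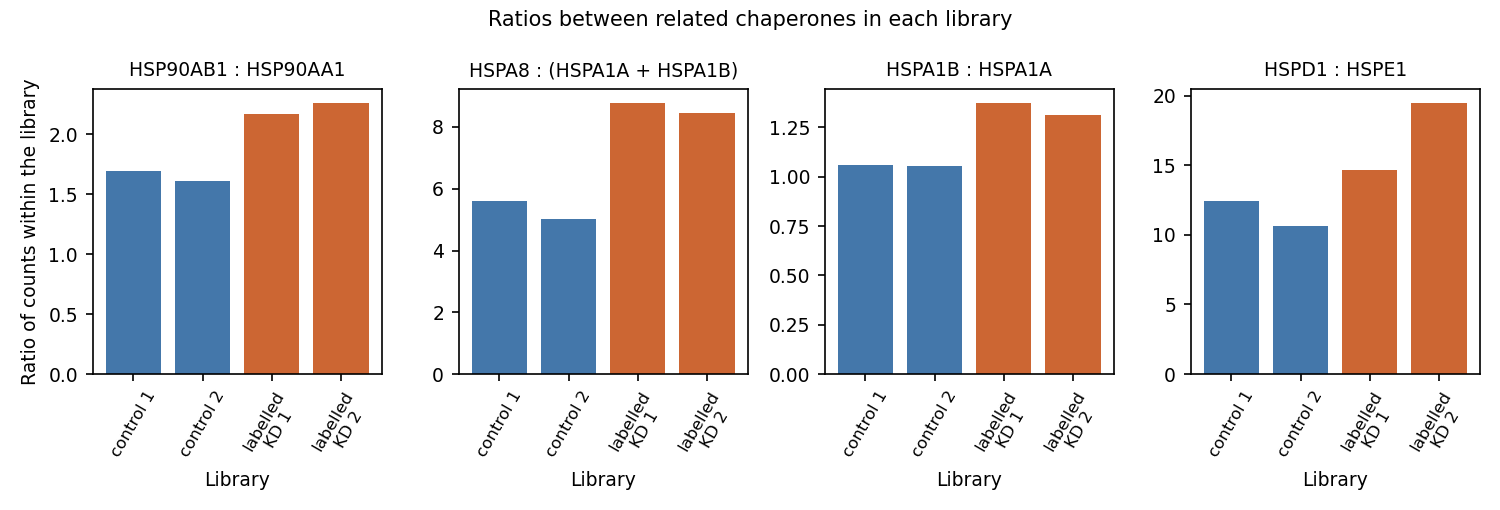
Ratio of counts between related chaperones within each library, control in blue and the libraries labelled PRMT5 KD in orange, with axes from 0. In all 4 ratios both labelled libraries lie above both controls, for example 8.79 and 8.45 against 5.61 and 5.02 for HSPA8 over the inducible pair.

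Compared per kilobase of the MANE transcript, so that genes of different length can be ordered, the levels spanned a wide range. In control they ran from HSPA8 (488 ± 78.3 CPM per kb, mean ± SD, n = 2) through HSP90AB1 (307 ± 2.699), HSP90AA1 (147 ± 6.19) and HSPD1 (97.7 ± 8.43) to HSPH1 (25.0 ± 0.418). Each of these first 4 stood apart from its neighbor in both libraries. HSPA1B and HSPA1A, at 42.8 ± 10.1 and 42.5 ± 10.1 CPM per kb, could not be ordered, and below them HSPB1 overlapped both HSPE1 and DNAJB1, while HSPE1 lay above DNAJB1 in both libraries.

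Under the PRMT5 KD label the order began as before, with HSPA8 at 924 ± 213, HSP90AB1 at 624 ± 45.7, HSP90AA1 at 222 ± 9.76 and HSPD1 at 209 ± 16.6 CPM per kb. HSP90AA1 and HSPD1 overlapped there, whereas in control HSP90AA1 was the higher. HSPB1 moved to the lowest place, at 12.3 ± 0.902 CPM per kb. Among 11819 tested genes ranked by CPM per kb within a library, HSPA8 ranked 59 and 43 in control and 30 and 16 under the label. HSP90AB1 ranked 96 and 103, then 45 and 33. HSPB1 went the other way, from 2698 and 1697 to 5131 and 5468.

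The wider chaperone network was read through 10 lists holding 115 genes, 104 of them tested. In all, 50 of the 104 were called, or 48.1%, near the 45.5% of all genes tested, with 38 higher (36.5%, beside 21.2% of all genes) and 12 lower (11.5%, beside 24.3%). Values beside a gene or list without a unit are log2 fold changes. HSP90 co-chaperones, which load clients onto HSP90 or adjust its ATPase, had 10 of 18 tested members higher and none lower, and their median was 0.56 on the log2 scale. That is 55.6% higher, beside 21.2% of all genes tested. The largest rises were those of TTC4 (1.13, SE 0.13, FDR = 0.000945), the immunophilin FKBP4 (0.97) and FKBP5 (0.96). TTC4 had 32.8 and 28.9 CPM in control and 63.5 and 71.7 CPM under the PRMT5 KD label. FKBP5 was not called without control 1 (FDR = 0.078) or without control 2 (FDR = 0.0566, with FDRs over all alternatives of 4.10e-05 to 0.078). STIP1, the adaptor that joins HSP70 to HSP90, stood at 0.48 (FDR = 0.0148), just under the threshold, and was called in 6 of 12 alternatives, among them the fit without PRMT5 KD 2 (0.58). AHSA1, the activator of the HSP90 ATPase, rose by 0.92, and the kinase adaptor CDC37 by 0.55, a call lost without control 1 (FDR = 0.0572) or control 2 (FDR = 0.0763), within FDRs of 0.000118 to 0.0763. Without control 1 or without control 2 the co-chaperones called higher numbered 6.

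Cofactors of HSP70 set its ATP cycle and direct its clients. Of 8 nucleotide exchange factors and adaptors 1 was higher, BAG1 (0.89, SE 0.13, FDR = 0.00208), and none was lower, with a median of 0.13. The 12.5% higher stood beside 21.2% of all genes tested, and the 0% lower beside 24.3%. BAG3, itself a known HSF1 target, stood at 0.03, and at -0.09 without control 1. Without PRMT5 KD 1, 2 of the 8 were higher, and with total counts alone 3 were. Among 16 J-domain proteins 6 were higher and 1 was lower, with a median of 0.29, and the 43.8% called in either direction was near the 45.5% of all genes. DNAJC9, a histone chaperone with a J-domain, had 22.7 and 20.1 CPM in control and 51.2 and 54.1 CPM under the PRMT5 KD label, a log2 fold change of 1.30 (SE 0.12). DNAJA1 and DNAJA2, the class A partners of cytosolic HSP70, stood at 0.79 and 0.55. DNAJC13, which acts on endosomes, fell by 1.12 on the log2 scale. DNAJA2 was not called with the length and GC correction (0.49), without control 1 (FDR = 0.057) or without control 2 (FDR = 0.0502), within FDRs of 0.000182 to 0.057. Without control 1, 2 J-domain genes were higher, and without control 2, 3 were, while without PRMT5 KD 1, 3 were lower.

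Of the 8 other cytosolic and nuclear HSP70 genes 5 were tested, and the ribosome-associated HSPA14 was higher (1.11, SE 0.11) while HSPA2 was lower (-0.76, SE 0.18). Each is 20% of those tested, beside 21.2% higher and 24.3% lower over all genes. The HSPA2 call was lost without control 2 (-0.58, FDR = 0.122, within FDRs of 0.00148 to 0.122), and without PRMT5 KD 1 there were 2 lower genes. HSPA4, the other major HSP110-type exchange factor, stood at 0.09. HSPA6, an HSP70 gene that is nearly silent without stress, had 1.47 to 19.0 counts per library and was not tested. Of 9 other small heat shock protein genes 2 were tested and both were higher, HSPB11 (1.22), a subunit of intraflagellar transport trains, and HSPB8 (0.51). The HSPB8 call was lost in 5 of 12 alternatives, among them the fits without control 1 (0.65, FDR = 0.0739), without control 2 (0.38, FDR = 0.222) and without PRMT5 KD 2 (0.35, FDR = 0.0816), within FDRs of 0.00267 to 0.222. CRYAB had at most 12 counts in a library.

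TRiC, the ring chaperonin of the cytosol that folds actin and tubulin, and its partner prefoldin had 10 of 15 genes higher and 1 lower, with a median of 0.54. That is 66.7% higher and 6.67% lower, beside 21.2% and 24.3% of all genes tested. Of 9 CCT genes 8 were higher, led by CCT8 (0.92, SE 0.12, FDR = 0.00151), CCT2 (0.80) and CCT5 (0.80). CCT8 had 155 and 153 CPM in control and 273 and 308 CPM under the PRMT5 KD label. The 8 span 0.52 to 0.92 on the log2 scale. The gene that fell was CCT6B, a paralog known from testis, at 2.47 and 2.52 CPM in control and 1.01 and 0.962 CPM under the label, and it was singled out after its value was seen. Its call was lost without control 1 (FDR = 0.0517) or control 2 (FDR = 0.063), within FDRs of 0.00216 to 0.063. Of 6 prefoldin genes 2 were higher. Without control 1, 6 genes of the list were higher, and without control 2, 5 were.

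Of 17 other mitochondrial chaperones and proteases 6 were higher and 1 was lower, with a median of 0.39, and the 41.2% called in either direction was likewise near the 45.5% of all genes. GRPEL1, the exchange factor of mitochondrial HSP70, rose by 1.14 (SE 0.14, FDR = 0.00126), from 20.6 and 18.7 CPM to 47.0 and 39.2 CPM. HSPA9, that HSP70 (mortalin), stood at 0.66 and the protease CLPP at 0.65. HSPA9 was not called without control 1 (FDR = 0.0682) or without control 2 (FDR = 0.132), within FDRs of 0.000288 to 0.132, and CLPP was not called without control 1 (FDR = 0.0851, within FDRs of 0.000834 to 0.0851). TRAP1, the mitochondrial HSP90, stood at 0.41, not called, and was called with total counts alone (0.59). The protease subunit SPG7 stood at -0.65 in the reported fit and at 0.01 with the length and GC correction, and it was not called without control 1 (-0.52) or without PRMT5 KD 1 (-0.46). Without control 1, and also without control 2, 2 genes of this list were higher, and with total counts alone 10 were.

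The heat shock factors themselves were measured too. HSF1, the main activator of the heat shock genes, had 59.0 and 62.8 CPM in control and 71.0 and 63.5 CPM under the PRMT5 KD label (log2 fold change 0.14, FDR = 0.326), and HSF2 stood at 0.32. Over all alternatives HSF1 ranged from 0.10 to 0.39, with FDRs down to 0.0248, and was not called. None of the 5 genes in this list was higher and 1 was lower, HSF4 (-1.36, SE 0.20), which is 20% lower beside 24.3% of all genes. Of 12 other heat-inducible genes 9 were tested, 2 were higher and 1 was lower. That is 22.2% higher and 11.1% lower, beside 21.2% and 24.3% of all genes tested. Among them HSPA4L, BAG3, CHORDC1, DNAJA1 and DNAJB4 also belong to the lists above. DNAJA1, named above, and DEDD2 (0.54) rose, and the collagen chaperone SERPINH1 fell by 0.70. The DEDD2 call was lost without control 1 (0.50, FDR = 0.0873) and without control 2 (0.59, FDR = 0.068), within FDRs of 0.00151 to 0.0873, and that of SERPINH1 without control 2 (-0.57, FDR = 0.0791, within FDRs of 0.000189 to 0.0791). SERPINH1 serves collagen folding, and its fall stands beside that of the collagen genes in the fibroblast list.

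The chaperones of the endoplasmic reticulum (ER), whose genes answer mainly to the unfolded protein response, were set beside the 10. Of 14 ER genes 1 was higher and 6 were lower, with a median of -0.42. The 50% called in either direction was near the 45.5% of all genes, with 42.9% lower beside 24.3% of all genes and 7.14% higher beside 21.2%. HSPA5 (BiP), the HSP70 of the ER, had 1404 and 1254 CPM in control and 887 and 862 CPM under the PRMT5 KD label, a log2 fold change of -0.60 (SE 0.14, FDR = 0.0125). HSP90B1 (GRP94), the HSP90 of the ER, stood at -0.57. The largest falls were those of DNAJC3 (-1.26) and HERPUD1 (-0.96), the latter listed with the ER chaperones but not itself one. The HSP90B1 call was lost in 5 of 12 alternatives, among them the fits without control 1 (-0.69, FDR = 0.051), without control 2 (-0.42, FDR = 0.163) and without PRMT5 KD 1 (-0.49), within FDRs of 0.00126 to 0.189. In the reported fit HSPA8 and HSP90AB1 of the cytosol were called higher, and HSPA5 and HSP90B1 of the ER lower, in the same libraries. Other cytosolic HSP70 genes varied. HSPA14 (1.11) was higher and HSPA2 (-0.76) lower, while HSPA1A (0.03), HSPA1B (0.37), HSPA4 (0.09) and HSPA4L (0.16) were not called. With total counts alone 2 of the 14 ER genes were lower, and 2 were without control 1 or control 2. HSPA5 was then at -0.43 with total counts alone (FDR = 0.0391), -0.52 without control 1 (FDR = 0.102) and -0.68 without control 2 (FDR = 0.0644), and not called, within FDRs of 5.76e-05 to 0.102.

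**Figure D5:**
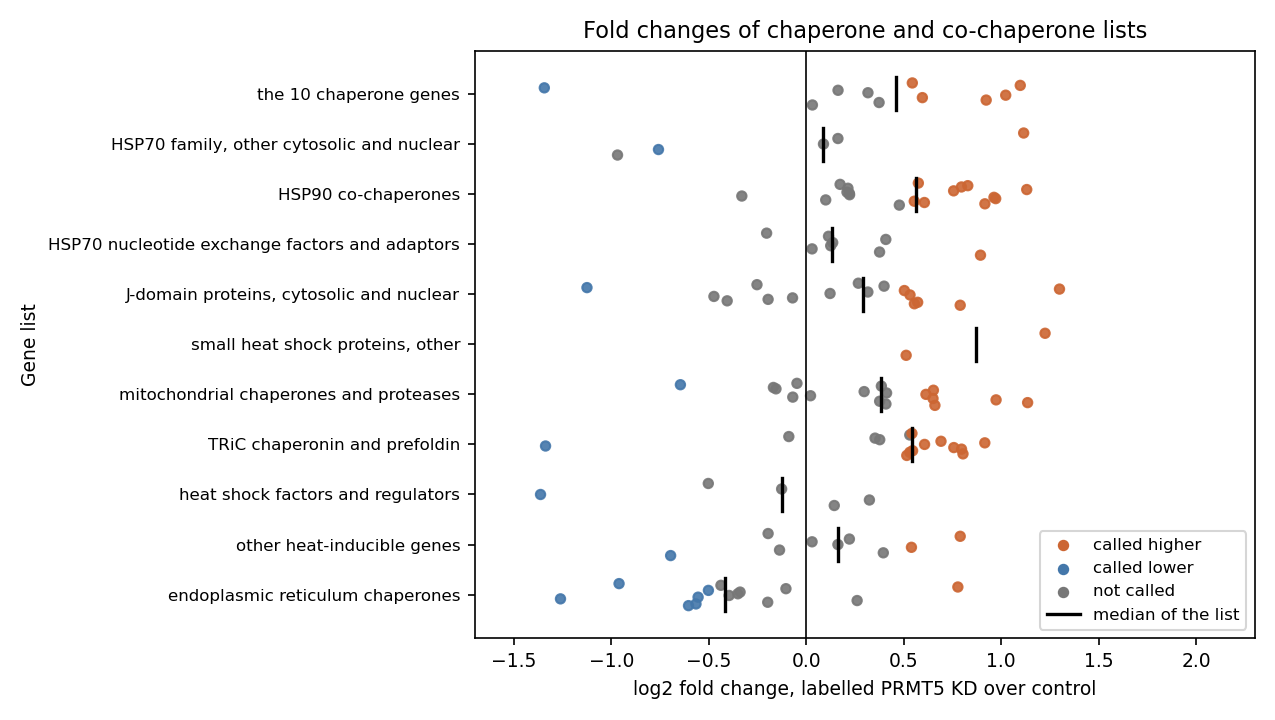
Log2 fold change of every tested gene in the 10 chaperones and in the 10 related lists, colored by call, with the median of each list as a black bar. The medians of the HSP90 co-chaperone and TRiC lists lie at 0.56 and 0.54, and that of the ER chaperones at -0.42.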

How the data were processed

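RNA-seq was compared between 2 control and 2 PRMT5 KD libraries of UMSCC74B. The authors deposited estimated counts per gene, not normalized, in a table per library. Their processing notes name FastQC, Trim Galore, STAR, Salmon and DESeq2 on GRCh38, and the methods of the paper describe a filter for uniquely mapped reads and then FeatureCounts. Counts made that way are whole by default, so which program gave the decimals, and whether that filter applies to these tables, is uncertain. No read-level step was repeated. The FXR1 KD libraries and the eCLIP were not analysed here.

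Rows of the same name were summed, 28 names that had become dates were left out (0.150% to 0.161% of counts), and names were matched to GENCODE release 44 by symbol (21877), RefSeq number (1149) or unique synonym (1574), which left 63 ambiguous and 4992 unmatched. Counts were rounded. Testing covered the 11919 protein-coding genes whose RPKM, on union exon lengths, reached 0.5 in both libraries of either group, by the quasi-likelihood method of edgeR 4.0.16 (robust dispersion, TMM factors, R 4.3.3) and Benjamini-Hochberg FDR over all of them. Calling required an FDR below 0.05 together with a log2 fold change of 0.5 or more in either direction. Standard errors were obtained by dividing the fold change by the root of F. The procedure was tested on simulated data, drawn from its own count model with few genes changed, equally up and down. That test does not cover libraries in which as many genes differ as here. Depth was 52185289 to 65964558 counts per library.

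The 10 members, the lists and the tests were chosen with earlier results of these data known. Beside the members and PRMT5, the genes named are called list genes averaging 3 or more in log2 CPM whose groups do not overlap, up to 3 in each direction per list, and genes that define a list by their role. Alternatives were DESeq2 1.42.0, other scalings and filters, all gene names, a replicate block, a length and GC correction (splines with 4 degrees of freedom), a fold threshold of 1, the HSP70 pair summed, and each library left out. Leaving out a library leaves 1 in its group, which is then assumed to vary like the other group. Promoter windows are from RefSeq on GRCh38.p14.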

Additional observations from a re-analysis of the deposited data

How the results depend on the processing

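Of the 6 chaperones called, HSP90AB1, HSPD1 and HSPB1 were called under every alternative run. At a log2 fold change threshold of 1 the calls numbered 2569 over all genes, 3 among the chaperones and 9 in the related lists, against 5427, 6 and 50. With each library left out in turn the calls ranged from 3118 to 5722 over all genes, from 3 to 6 among the chaperones and from 24 to 51 in the lists, and the log2 fold change of PRMT5 ranged from 0.57 to 0.78. The log2 fold change of PRMT5 stayed above 0.5 in each of these fits, while its call was lost without control 2. The lower counts came without a control library, and the cause was not tested. Leaving out libraries gave HSPA1A log2 fold changes of -0.27 to 0.33, negative without control 1 and without PRMT5 KD 2, and BAG3 log2 fold changes of -0.0865 to 0.157, negative without control 1. SPG7 went from -0.65 to 0.015 with the length and GC correction. The replicate numbers are not known to mark pairs, and the correlation between same-numbered libraries' deviations from their group means was -0.10. With a replicate block 5189 genes, the same 6 chaperones and 45 list genes were called. Precision is limited by 2 libraries per group (biological coefficient of variation 14.2%) and, for HSPB1 and HSPE1, the least counted of the set, by counts of 432 to 1457 per library.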
